A study of Mus musculus with 10 samples.

Results

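The genes described here were 6 matrix metalloproteinases (Mmp2, Mmp3, Mmp9, Mmp10, Mmp13 and Mmp14) and 3 tissue inhibitors of metalloproteinases (Timp1, Timp2 and Timp3), taken by name from a table of 16875 gene names measured by RNA sequencing in 10 mouse colon tumors. All 9 were in the table, and all 9 had a mean of at least 0.5 FPKM (fragments counted per unit of transcript length and of library size), which was the minimum for testing. Mmp3 and Mmp10 carried the same value in each of the 10 tumors, so the 9 names gave 8 separate sets of values, and that shared value is called Mmp3/Mmp10 below. Between tumors in which Wls had been deleted from the epithelium and control tumors, Mmp9 was the member that differed. It was 3.14-fold lower in Villin-WlscKO tumors by the ratio of mean FPKM. Mmp3/Mmp10 and Mmp13 varied more from tumor to tumor within a group than between the groups, whereas Mmp14 was high and even in all 10 tumors.

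Matrix metalloproteinases are zinc-dependent enzymes that cut collagens, laminins, proteoglycans and proteins of the cell surface. Most are secreted as inactive precursors and are activated when a propeptide is removed. Tissue inhibitors of metalloproteinases bind the active site and block it. In inflamed and neoplastic colon these enzymes come mainly from stromal fibroblasts, macrophages, neutrophils and wounded epithelium, and they are known for tissue remodelling, ulceration and invasion.

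All mice were on the C57BL/6 background, were between 6 and 10 weeks old at the start and carried homozygous floxed Wls alleles (Wls flox/flox). They received azoxymethane (AOM), a colon carcinogen, and then 3 cycles of 2% dextran sulfate sodium (DSS) in drinking water, which injures the mucosa. The 5 control tumors were titled Wls WT and had the genotype label Wls control (Wls flox/flox), and the study describes tumors from mice given no tamoxifen as its default control. The 5 Villin-WlscKO tumors also carried Villin-Cre ERT2, a tamoxifen-inducible Cre recombinase driven in intestinal epithelium, and the mice were given 5 tamoxifen injections of 80 mg/kg, beginning 30 days before collection. Wls encodes a transmembrane protein that Wnt ligands need for secretion, and the comparison asks what changes in established tumors once their epithelium cannot secrete Wnts. The Villin promoter directs Cre to epithelium, so the stroma was meant to keep Wls, but Wls was not measured in stroma on its own. The number of mice behind the tumors is not given in the sources used here, so n counts tumors. The p-values weigh the group difference against the spread between these tumors. If some tumors came from the same mouse, the p-values may be too small for a statement about mice.

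Wls itself was between 61.3 and 79.9 FPKM in controls and between 2.03 and 11.7 FPKM in the Villin-WlscKO group. The groups also differed in sex. Xist, transcribed from the inactive X chromosome of females, was at most 0.420 FPKM in control tumors and at least 439 FPKM in Villin-WlscKO tumors, and the Y-linked Eif2s3y was at least 30.4 FPKM in controls and at most 0.138 FPKM in the Villin-WlscKO group. Genotype, sex and tamoxifen cannot be told apart in this design. This bears most directly on Timp1, which lies on the X chromosome. All 10 colon epithelium markers were present, Epcam at a mean of 986 FPKM in controls against 1120 FPKM in the Villin-WlscKO group. Villin-WlscKO tumors 2 and 3 stood apart by squamous markers (Krt5 and 7 others), which summed to 1020 and 1334 FPKM against at most 216 FPKM in the other 8 tumors, and the calls that were lost without this pair are named below. Across the groups 0 of those 8 markers passed in limma, and 0 had an unadjusted p under 0.05. In whole tumor pieces, fewer cells of a type and less RNA per cell cannot be told apart.

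The 6 metalloproteinases share the catalytic site that defines the family, in which 3 histidines hold a zinc ion. Its coding sequence is shown because it places Mmp3 and Mmp10 as the closest pair of the set. The stretches are 33 bases long, 5′ to 3′, from GENCODE M21 transcripts (GRCm38), and the capitals mark the codons of the 3 zinc-binding histidines, of the catalytic glutamate and of the conserved glycine.
Mmp2: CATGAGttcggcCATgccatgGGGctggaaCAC
Mmp9: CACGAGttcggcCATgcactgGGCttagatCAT
Mmp14: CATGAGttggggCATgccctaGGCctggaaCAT
Mmp13: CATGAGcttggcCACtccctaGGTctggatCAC
Mmp3: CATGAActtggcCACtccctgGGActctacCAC
Mmp10: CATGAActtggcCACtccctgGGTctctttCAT

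Mmp3 and Mmp10 differed at 4 of these 33 bases, the fewest of any pair, and Mmp3 and Mmp9 at 13, the most. Over their whole coding sequences Mmp3 and Mmp10 (stromelysins, which cut proteoglycans and laminin and activate other metalloproteinases) were 79.8% identical over 1426 aligned bases, and the other pairs were between 59.3% and 65.2% identical. Of the 1673 stretches of 50 bases in the Mmp10 transcript, 140 occurred unchanged in the Mmp3 transcript, and no other pair of members shared any. Most of each transcript is therefore distinct in sequence at this length, although the deposited table gives both names the same FPKM in every tumor. Other sets of names in the table share values in the same way, 2419 names in 1012 sets. Mmp3 lies on chromosome 9 from 7445822 to 7455975 and Mmp10 from 7502352 to 7510240 of GRCm38, 46.4 kb apart on the same strand, and the gene annotated between them, Mmp1a, is not among the names analysed here. A value of Mmp3/Mmp10 may therefore be that of either gene or of both.

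Both genes and Mmp13 belong to a run of 10 metalloproteinase genes on chromosome 9 between 7272514 and 7699585, of which 6 names are in the table. The promoters of these 3 members are shown because Mmp3/Mmp10 and Mmp13 had the highest spread between tumors among the members. As told below, these values rose and fell together. Because Mmp3 and Mmp10 share a value, it was not tested whether all 3 genes did so. The windows are RefSeq sequences of GRCm38.p6 on the forward strand, from 250 bases before to 50 bases after the annotated start, at chr9:7445572-7445871 for Mmp3, chr9:7502092-7502391 for Mmp10 and chr9:7272264-7272563 for Mmp13. Capitals mark a match to the AP-1 site TGANTCA and a match to the TATA box TATAAA.
Mmp3: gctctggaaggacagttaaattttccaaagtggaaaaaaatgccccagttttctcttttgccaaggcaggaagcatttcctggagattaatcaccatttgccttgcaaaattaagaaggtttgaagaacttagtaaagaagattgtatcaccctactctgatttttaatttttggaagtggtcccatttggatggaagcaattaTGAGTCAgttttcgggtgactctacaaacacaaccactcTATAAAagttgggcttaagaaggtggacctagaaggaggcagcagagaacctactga
Mmp10: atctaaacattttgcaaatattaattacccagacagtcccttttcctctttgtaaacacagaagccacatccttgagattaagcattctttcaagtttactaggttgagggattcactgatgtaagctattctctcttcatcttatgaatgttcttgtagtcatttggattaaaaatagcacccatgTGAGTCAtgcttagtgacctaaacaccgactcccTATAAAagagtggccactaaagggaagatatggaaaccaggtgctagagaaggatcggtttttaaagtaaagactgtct
Mmp13: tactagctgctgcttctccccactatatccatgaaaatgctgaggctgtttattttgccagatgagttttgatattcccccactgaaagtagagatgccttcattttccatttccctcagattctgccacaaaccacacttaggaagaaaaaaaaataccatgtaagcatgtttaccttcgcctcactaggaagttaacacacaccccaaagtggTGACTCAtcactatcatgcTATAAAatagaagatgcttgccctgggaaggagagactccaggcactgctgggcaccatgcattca

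AP-1 is a dimer of Fos and Jun proteins induced by growth factors and inflammatory cytokines. The AP-1 match began 46 bases before the start of Mmp3, 63 before that of Mmp10 and 35 before that of Mmp13, in each case upstream of the TATA match. Of the 9 members, 7 had an entry in the promoter table, and neither motif matched in the windows of Mmp14, Timp1, Timp2 and Timp3. Searched on both strands, TGANTCA matched in 7.81% and TATAAA in 13.6% of all 32851 promoter windows. The TCF/LEF motif CTTTGA, at which the nuclear effectors of Wnt signalling bind, matched in 16.0% of all windows and, of the members, in that of Timp1, from 3 bases after its start. These matches describe letters, and binding was not measured here.

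**Figure D1:**
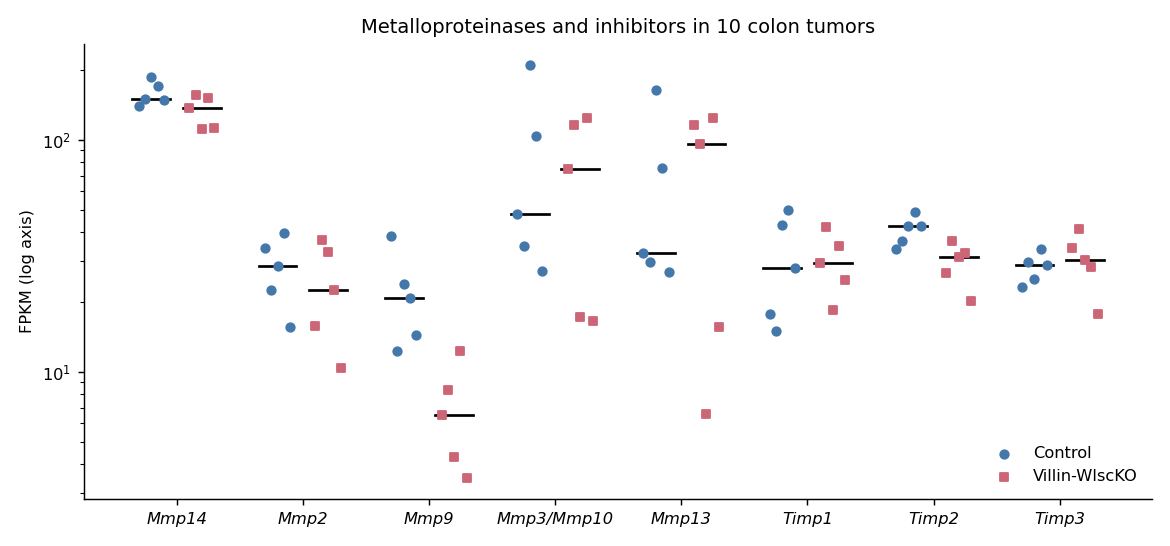
FPKM on a log axis of the 8 separate sets of member values in 5 control tumors (circles) and 5 Villin-WlscKO tumors (squares), with horizontal lines at the group medians. Mmp9 is the set whose groups do not overlap, and Mmp3/Mmp10 and Mmp13 spread most within a group.

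Mmp9, gelatinase B, degrades denatured collagen and the type IV collagen of basement membranes, and is stored in neutrophils and made by macrophages and tumor cells. It lies on chromosome 2 from 164940780 to 164955850. Its values were 38.3, 12.3, 23.8, 20.7 and 14.4 FPKM in control tumors 1 to 5 and 6.54, 8.32, 4.27, 12.3 and 3.47 FPKM in Villin-WlscKO tumors 1 to 5. All 5 Villin-WlscKO tumors lay below all control tumors, but the highest of them, tumor 4, was within 0.0428 FPKM of the lowest control, tumor 2. The control mean of 21.9 ± 10.3 FPKM (SD, n = 5 tumors) compared with 6.97 ± 3.52 FPKM (SD, n = 5) after deletion. The difference of mean log2(FPKM + 1) was -1.53 (standard error 0.35, limma adjusted p = 0.0197), and an exact two-sided permutation test over the 252 arrangements of the tumors gave p = 0.00794, the smallest it allows. In limma, linear models fitted to all 16757 tested genes with Benjamini-Hochberg adjustment, 10.9% of genes passed an adjusted p under 0.05, 4.75% (796 genes) lower and 6.12% (1026 genes) higher in Villin-WlscKO tumors. That split was 412 lower and 1385 higher once all tumors were scaled to an equal FPKM total, and 1126 and 894 after quantile normalization, and Mmp9 was lower and passed under both. Of the 8 sets of member values, 1 passed lower and 0 higher, and 2 had an unadjusted limma p under 0.05. Such a p was common over all genes tested, where Mmp14, at an unadjusted limma p of 0.0513, ranked 4355 by adjusted p. Groups without overlap were found for 1 of the 8 sets and for 10.1% of all genes, 4.76% lower and 5.33% higher. Of the 8 log2 changes 6 were negative and 2 positive, with a median of -0.28 against 0.0073 over all genes tested. Without Villin-WlscKO tumor 3 the Mmp9 change was -1.40 with a limma adjusted p of 0.0509, and without tumors 2 and 3 it was -1.48 with 0.0774, so the call depended on tumor 3 while the size did not.

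The neutrophil markers had changes of the opposite sign to Mmp9. Of 10 listed, 6 were in the table (S100a8, S100a9, Csf3r, Cxcr2, Ly6g and Retnlg), while the names of the granule genes Mpo, Elane, Ngp and Camp were not analysed here. All 6 had a positive change. In limma 0 passed the adjusted threshold and 5 had an unadjusted p under 0.05. Over all 16757 genes tested such a p was common, as Mmp14, at an unadjusted limma p of 0.0513, ranked 4355 by adjusted p. The FPKM of the 6 markers summed to between 227 and 775 in control tumors and between 591 and 1241 in Villin-WlscKO tumors. S100a8, a calcium-binding protein abundant in neutrophils, was at 143 ± 84.3 FPKM (SD, n = 5) in controls against 331 ± 135 FPKM (SD, n = 5) in the Villin-WlscKO group (log2 change 1.301, limma adjusted p = 0.0773). It was highest in Villin-WlscKO tumors 2 and 3, at 487 and 422 FPKM. In controls S100a8, S100a9 and Ly6g had means of 143, 187 and 98.6 FPKM, and Csf3r, Cxcr2 and Retnlg 6.54, 1.80 and 9.67 FPKM. Csf3r had the smallest log2 change of the 6, 0.18 (limma adjusted p = 0.778). Mmp8, the neutrophil collagenase, was between 0.149 and 0.588 FPKM in controls and between 0.345 and 1.32 FPKM in the Villin-WlscKO group, and its mean was under the minimum for testing. After removing group means, the summed neutrophil markers had an r of 0.40 and a rho of 0.42 with Mmp9 over the 10 tumors. The part of these cells in the Mmp9 difference was not tested. Macrophage markers summed to between 224 and 390 FPKM in controls and between 208 and 418 FPKM in the Villin-WlscKO group. Of the 9 tested, 1 passed, beside 10.9% of all genes. Cd14 was higher past the threshold (but not without Villin-WlscKO tumors 2 and 3, limma adjusted p = 0.121, and in 2 of 10 fits with single tumors left out, those without control tumor 3 or Villin-WlscKO tumor 1), the other 8 in the table were not, and Cd163 was not analysed here. After quantile normalization Cd14 did not pass (limma adjusted p = 0.0502). Lcn2, whose product binds Mmp9 and protects it from degradation, was at 134 ± 110 and 286 ± 233 FPKM (SD over 5 tumors per group), with a log2 change of 1.35 that did not pass (limma adjusted p = 0.287).

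Mmp3/Mmp10 was at 48.0, 35.0, 211, 103 and 27.2 FPKM in control tumors 1 to 5 and at 75.2, 116, 17.3, 124 and 16.5 FPKM in Villin-WlscKO tumors 1 to 5. The groups overlapped over most of their range, with control tumor 3 highest of all and Villin-WlscKO tumors 3 and 5 lowest. From the lowest to the highest tumor the value changed 7.75-fold among controls and 7.54-fold among Villin-WlscKO tumors. The log2 change between the groups was -0.32 with a 95% interval from -1.94 to 1.29 (limma adjusted p = 0.829). That interval spans falls and rises of more than 1 on the log2 scale, so the data leave its direction undetermined, and the sign turned positive without control tumor 3 (0.11) and without Villin-WlscKO tumor 3 (0.048) or 5 (0.063).

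Mmp13, collagenase 3, cuts fibrillar collagen and lies on chromosome 9 from 7272514 to 7283331, at the start of the same run of genes. It was at 32.4, 29.6, 164, 75.4 and 26.9 FPKM in control tumors 1 to 5 and at 116, 95.9, 6.55, 125 and 15.6 FPKM in Villin-WlscKO tumors 1 to 5. Villin-WlscKO tumors 1, 2 and 4 lay above 4 of the control tumors, and tumors 3 and 5 lay below all of them. The spread among Villin-WlscKO tumors was 19.0-fold from the lowest to the highest and 6.10-fold among controls. The log2 change was -0.20 with a 95% interval from -2.09 to 1.69 (limma adjusted p = 0.915), and the ratio of mean FPKM was 1.09, so the direction depends on the scale. Left out together, Villin-WlscKO tumors 2 and 3 gave 0.28. The within-group SD of log2(FPKM + 1) was 1.54 for Mmp13 and 1.31 for Mmp3/Mmp10, higher than in 99.1% and 98.5% of the genes tested.

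The 2 sets of values followed each other. Over the 10 tumors, Pearson's r of log2(FPKM + 1) between Mmp3/Mmp10 and Mmp13 was 0.95 and Spearman's rho 0.95, and r was 0.94 without control tumor 3 and Villin-WlscKO tumor 5, the tumors farthest from the median. Within the groups r was 0.99 among the 5 controls and 0.95 among the 5 Villin-WlscKO tumors. The 5 lowest tumors were the same for both sets. The ratio of Mmp3/Mmp10 to Mmp13 FPKM lay between 1.01 and 1.48 in control tumors and between 0.646 and 2.64 in Villin-WlscKO tumors. The values of a tumor come from a single library, and these correlations are descriptions of 10 tumors.

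**Figure D2:**
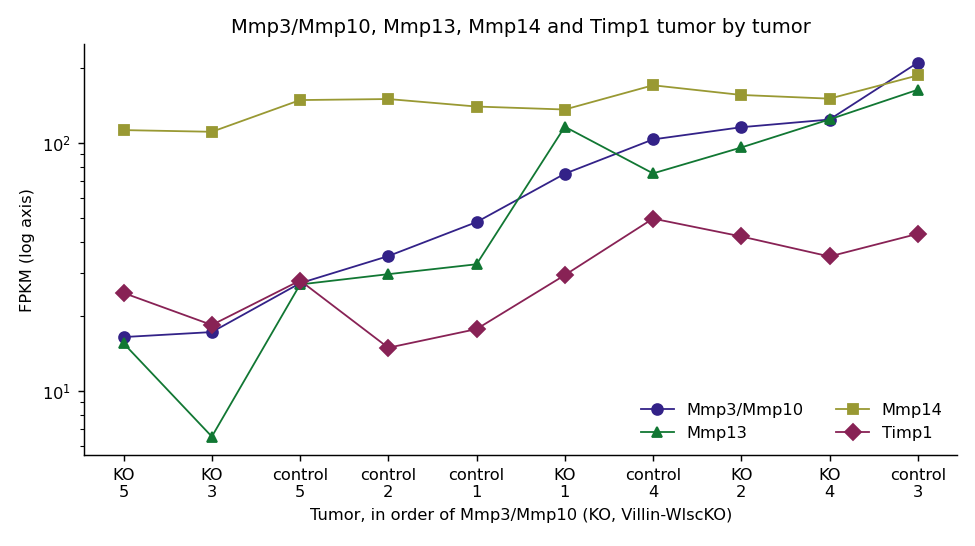
FPKM on a log axis of Mmp3/Mmp10, Mmp13, Mmp14 and Timp1 in each of the 10 tumors, placed in rising order of Mmp3/Mmp10 (KO, Villin-WlscKO). Mmp13 is lowest in the leftmost pair (15.6 and 6.55 FPKM in Villin-WlscKO tumors 5 and 3) and highest in control tumor 3 on the right (164 FPKM), with Villin-WlscKO tumor 1 above its neighbours, while Mmp14 stays between 111 and 187 FPKM.

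Mmp14, the membrane-anchored collagenase MT1-MMP that activates the precursor of Mmp2, lies on chromosome 14 from 54431612 to 54445364. It was at 140, 150.4, 187, 171 and 149 FPKM in control tumors 1 to 5 and at 136, 156, 111, 151 and 113 FPKM in Villin-WlscKO tumors 1 to 5. Villin-WlscKO tumors 1, 3 and 5 were below every control tumor and the other two were within the control range. Its mean was 160 ± 19.1 FPKM in controls against 133 ± 21.03 FPKM in the Villin-WlscKO group (SD over 5 tumors per group). The log2 change of -0.26 (standard error 0.12, 95% interval from -0.53 to 0.0018) had a limma adjusted p of 0.197 and an exact permutation p of 0.103, and did not pass. Although its level was the most even of the 8 sets, its small deviations went with those of Mmp3/Mmp10. Over the 10 tumors r with Mmp3/Mmp10 was 0.84 and rho 0.83, and r was 0.69 without control tumor 3 and Villin-WlscKO tumor 5. After removing each group's mean, r was 0.95 with Mmp3/Mmp10 and 0.93 with Mmp13.

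Mmp2, gelatinase A, is made mainly by fibroblasts and lies on chromosome 8 from 92827291 to 92853420. It was at 34.1, 22.5, 28.5, 39.6 and 15.5 FPKM in control tumors 1 to 5 and at 15.8, 37.0, 32.8, 22.5 and 10.4 FPKM in Villin-WlscKO tumors 1 to 5. The highest Villin-WlscKO values were in tumors 2 and 3, the pair with squamous markers, and the groups overlapped. The log2 change was -0.30 (standard error 0.35, limma adjusted p = 0.646), and it was -0.75 without that pair, which did not pass either (limma adjusted p = 0.211). With single tumors left out it ranged from -0.055 without Villin-WlscKO tumor 5 to -0.49 without Villin-WlscKO tumor 2. Mmp2 kept to a different order of tumors from Mmp13, with an r of 0.19 and a rho of 0.19 over the 10 tumors. The summed squamous markers had an r of 0.75 with Mmp2 after removing group means, and the endothelial markers 0.89.

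The fibroblast markers were all present, 10 of 10, and 1 passed (10.9% of all genes did), Fbln1, which was higher in Villin-WlscKO tumors. They summed to between 311 and 1072 FPKM in controls and between 412 and 1212 FPKM in the Villin-WlscKO group, and no gene of the list was at 0 throughout. After removing group means, the summed level had an r of 0.79 with Mmp3/Mmp10, 0.74 with Mmp2, 0.70 with Mmp14 and 0.60 with Mmp13 over the 10 tumors. Villin-WlscKO tumor 3 departed from this, with 689 FPKM of fibroblast markers beside 17.3 FPKM of Mmp3/Mmp10. The summed macrophage markers had an r of 0.84 with Mmp2 and 0.17 with Mmp3/Mmp10. The part of these cells in the spread of the members was not tested.

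**Figure D3:**
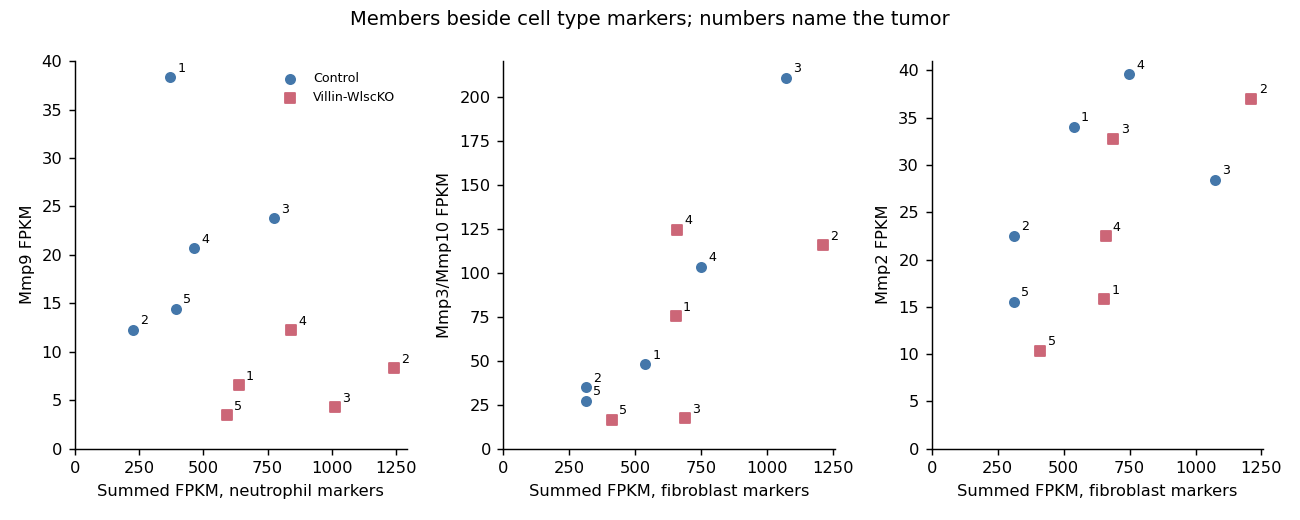
FPKM of a member against the summed FPKM of a marker list, 1 point per tumor with its number (circles, control; squares, Villin-WlscKO): Mmp9 with neutrophil markers, Mmp3/Mmp10 and Mmp2 with fibroblast markers. In the panel of Mmp9 the Villin-WlscKO tumors lie at or below 12.3 FPKM of Mmp9 with marker sums from 591 to 1241 FPKM.

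The 3 inhibitors had no member past the threshold. Timp2, on chromosome 11 from 118301069 to 118355740, inhibits most metalloproteinases and also assists Mmp14 in activating Mmp2. The gene Cep295nl, from 118332360 to 118342500, lies inside it on the same strand and is not among the names analysed here. Timp2 was at 33.9, 36.6, 42.3, 48.6 and 42.4 FPKM in control tumors 1 to 5 and at 26.7, 36.6, 31.2, 32.5 and 20.1 FPKM in Villin-WlscKO tumors 1 to 5. Villin-WlscKO tumors 1, 3, 4 and 5 were below every control tumor, and tumor 2 reached the level of control tumor 2. The mean was 40.8 ± 5.71 FPKM in controls against 29.4 ± 6.29 FPKM in the Villin-WlscKO group (SD over 5 tumors per group). The log2 change was -0.47 (standard error 0.15), with a limma adjusted p of 0.0799 and an exact permutation p of 0.0238. Without Villin-WlscKO tumor 2 it was -0.56 with a limma adjusted p of 0.0490, and Timp2 passed in no other fit. Once all tumors were scaled to an equal FPKM total, the Timp2 change was -0.37 with a limma adjusted p of 0.219. Besides Mmp9, Timp2 was the other set with an unadjusted limma p under 0.05.

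Timp1, an inducible inhibitor that binds the precursor of Mmp9, is the X-linked member, from 20870166 to 20874735, inside the gene Syn1 on the opposite strand. It was at 17.8, 14.9, 43.0, 49.6 and 27.9 FPKM in control tumors 1 to 5 and at 29.3, 42.0, 18.5, 34.9 and 24.8 FPKM in Villin-WlscKO tumors 1 to 5. The Villin-WlscKO values all lay within the range of the controls, and the log2 change was 0.058 (95% interval from -0.69 to 0.81, limma adjusted p = 0.942). The ratio of mean FPKM was 0.976, so the sign differs between the scales. Timp3, which is held in the extracellular matrix and also blocks ADAM proteases, lies on chromosome 10 from 86300372 to 86349506, inside Syn3 on the opposite strand. It was at 23.3, 29.8, 25.1, 34.0 and 28.7 FPKM in control tumors 1 to 5 and at 34.1, 41.3, 30.4, 28.2 and 17.8 FPKM in Villin-WlscKO tumors 1 to 5. Villin-WlscKO tumors 1 and 2 were above the controls and tumor 5 was below them. The log2 change was 0.066 (95% interval from -0.36 to 0.50, limma adjusted p = 0.875), and it was -0.11 without Villin-WlscKO tumors 2 and 3. Syn3 was at a mean of 0.805 FPKM in controls against 0.628 FPKM in the Villin-WlscKO group, against 28.2 and 30.4 FPKM of Timp3.

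FPKM is per length of transcript, so the members can be ordered by level within a tumor. Mmp14 was the highest of the 8 sets in 9 tumors, and Mmp3/Mmp10 was the highest in control tumor 3. Mmp9 was the lowest in 9 tumors, and Timp1 was the lowest in control tumor 1. In control tumors the order of mean FPKM was Mmp14, Mmp3/Mmp10, Mmp13, Timp2, Timp1, Timp3, Mmp2 and Mmp9, and in Villin-WlscKO tumors it was Mmp14, Mmp13, Mmp3/Mmp10, Timp3, Timp1, Timp2, Mmp2 and Mmp9. The ranges over tumors of every neighbouring pair overlapped in both groups. Within tumors, Mmp14 exceeded Mmp3/Mmp10 in 4 of 5 controls and Mmp13 in 5 of 5 Villin-WlscKO tumors, and Mmp9 was below Mmp2 in 4 of 5 and 5 of 5.

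Summed over the 5 sets of metalloproteinase values, the level ran from 233 to 614 FPKM in control tumors and from 159 to 435 FPKM in Villin-WlscKO tumors. The 3 inhibitors summed to between 75.0 and 132 FPKM and between 62.8 and 120 FPKM. The ratio of these sums was 3.60 ± 1.23 in control tumors and 3.31 ± 0.981 in Villin-WlscKO tumors (SD over 5 tumors per group), and the ranges overlapped, from 2.35 to 5.56 and from 2.15 to 4.55. Much of this variation was that of Mmp3/Mmp10 and Mmp13, which made up 23.2% to 61.0% of the metalloproteinase sum in control tumors and 13.9% to 57.3% in Villin-WlscKO tumors. Because Mmp3 and Mmp10 share an entry, that entry was counted once.

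For each member, the genes whose deviations from the group means were most like its own over the 10 tumors were named, with r as the measure. Mmp13 had Mmp3/Mmp10 among its 3 (r = 0.95), with Pawr (r = 0.96), which encodes a regulator of apoptosis, and Polr3d (r = 0.95), a subunit of RNA polymerase III. Mmp3/Mmp10 was followed most closely by Gfra2, Ranbp1 and Pxdc1 (r = 0.97 for each). For Mmp2 the genes were Hcls1, a hematopoietic signalling protein (r = 0.98), Tmem204 (r = 0.97) and Col1a2, a chain of fibrillar collagen (r = 0.97). Mmp9 had Mcmdc2 (r = 0.94), Thbs1, which encodes the matrix protein thrombospondin 1 (r = 0.94), and Lemd1 (r = 0.93). For Mmp14 they were Dnmt3b and Gm14490, which share an entry, and Sntb2 (r = 0.97 each), and for Timp1 they were Cks1b and the shared entry of Cd47 and AC107830.1 (r = 0.95 each). Timp2 had Tm6sf1 (r = 0.98), Lrp12 and Wwtr1 (r = 0.93 each), and Timp3 had Gm28229 (r = 0.97), Btbd10 (r = 0.93) and D16Ertd472e (r = 0.92). They were picked as the closest of 16757 genes over 10 tumors, each tumor giving a single library, and are a description.

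Outside the 9 members, 8 of 17 other listed Mmp genes were in the table and 7 passed the filter. Of those 7, 2 were higher and 1 was lower past the threshold, beside 6.12% and 4.75% of all genes. Mmp7, matrilysin, an epithelial enzyme and known target of Wnt signalling, lies on chromosome 9 from 7692090 to 7699585, at the end of the same run of genes as Mmp3. It was the highest of the 13 Mmp entries in all 10 tumors. Its values were between 292 and 484 FPKM in control tumors, with a median of 326, and between 541 and 1346 FPKM in Villin-WlscKO tumors, with a median of 808, and the groups did not overlap. It rose 2.34-fold by the ratio of means (log2 change 1.17, standard error 0.25, limma adjusted p = 0.0153). In the study's own table of loci, the entry named Mmp7 extends over the neighbouring gene Mmp20, so reads of both may be in its value. Mmp7 and Mmp9 thus moved in opposite directions. The other tested genes of the chromosome 9 run, Mmp13, Mmp12 (log2 change -0.31, limma adjusted p = 0.697) and Mmp3/Mmp10, did not pass the threshold.

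**Figure D4:**
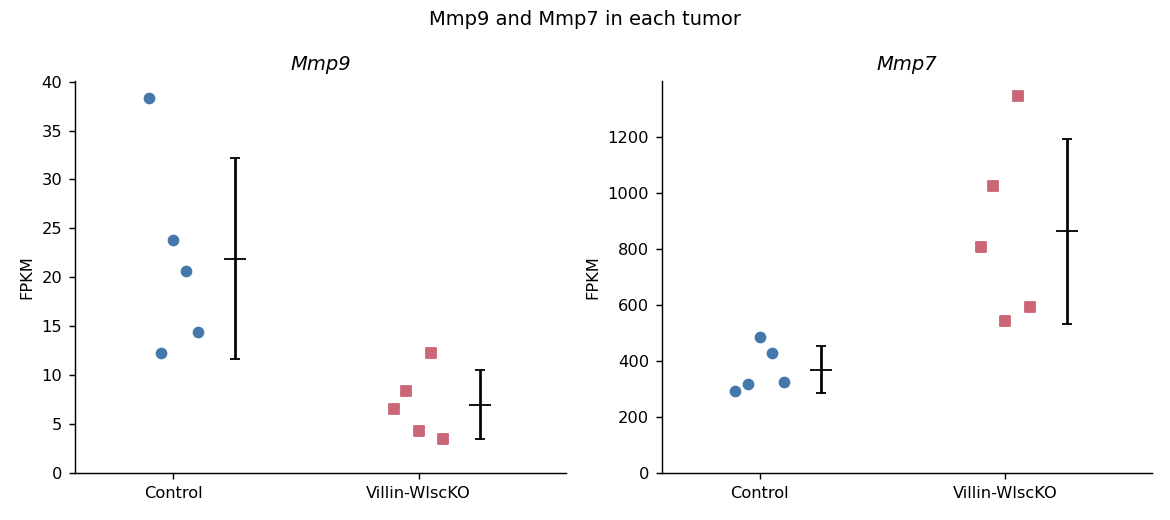
FPKM of Mmp9 (left) and Mmp7 (right) in each of 5 control (circles) and 5 Villin-WlscKO tumors (squares), with the mean and SD of each group as a bar beside the points. All Villin-WlscKO tumors lie below the controls for Mmp9 and above them for Mmp7, Mmp9 by a margin of 0.0428 FPKM.

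Mmp15, a membrane-anchored enzyme (MT2-MMP) of epithelial cells, was between 65.5 and 103 FPKM in controls and between 36.4 and 50.7 FPKM in the Villin-WlscKO group. The log2 change was -0.85 (standard error 0.14, limma adjusted p = 0.00341), the smallest adjusted p among the metalloproteinases and their inhibitors. Mmp28, epilysin, an enzyme of epithelia, rose from 4.81 ± 1.28 to 8.52 ± 1.44 FPKM (SD over 5 tumors per group), a log2 change of 0.72 (limma adjusted p = 0.0181) with overlapping groups, and it was 0.61 without Villin-WlscKO tumors 2 and 3 (limma adjusted p = 0.0992) and at an adjusted p of 0.0588 in limma with the replicate number as a block. Mmp11, the stromal enzyme stromelysin 3, was at 12.3 ± 3.79 and 7.53 ± 2.96 FPKM (SD over 5 tumors per group), with a log2 change of -0.66 that did not pass (limma adjusted p = 0.129) but did without Villin-WlscKO tumor 4 (-0.83, limma adjusted p = 0.0461). Mmp23 (-0.61, limma adjusted p = 0.133), Mmp19 (0.18, limma adjusted p = 0.786) and the inhibitor Timp4 (-0.34, limma adjusted p = 0.652) did not pass, and Reck was not analysed here.

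**Figure D5:**
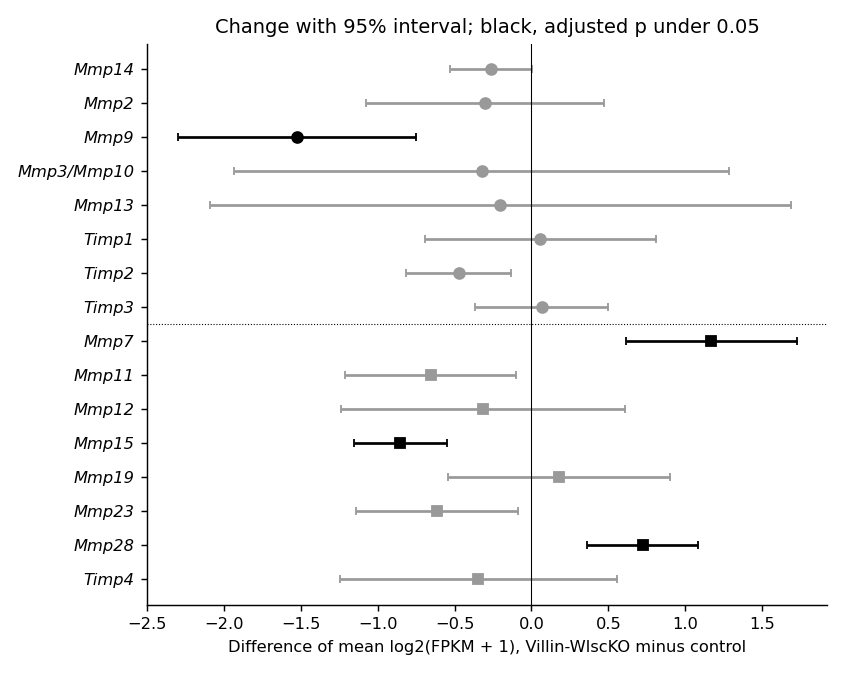
Group difference of mean log2(FPKM + 1), as Villin-WlscKO less control, and its 95% interval from limma, for the 8 sets of member values (circles, above the dotted line) and for the other tested metalloproteinases and Timp4 (squares). Mmp9, Mmp7, Mmp15 and Mmp28, in black, have an adjusted p under 0.05.

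The wider set of proteases, activators and inducers held 89 listed genes, the other metalloproteinases included, of which 69 were tested. Of these, 7 were higher and 4 lower past the threshold, beside 6.12% and 4.75% of all genes. The median log2 change of the 69 was 0.028, against 0.0073 over all genes. In the plasminogen system, which activates metalloproteinases, 2 of 7 passed, beside 10.9% of all genes. Plgrkt, a plasminogen receptor, rose from 56.7 ± 10.03 to 102 ± 26.4 FPKM, and Plat, tissue plasminogen activator, fell from 166 ± 60.5 to 81.4 ± 23.4 FPKM (SD over 5 tumors per group, limma adjusted p = 0.0162 and 0.0412). Plau, urokinase, was at 22.2 ± 12.5 and 14.8 ± 7.07 FPKM (SD over 5 tumors per group) and did not pass.

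Of 15 ADAM and ADAMTS genes, relatives of the metalloproteinases that shed surface proteins or cut proteoglycans, 0 passed in limma, 3 had an unadjusted p under 0.05, and the median log2 change was 0.040. An unadjusted p under 0.05 was common over all genes tested, as told above. Of 17 cathepsins and other proteases, 3 were higher and 2 lower, beside 6.12% and 4.75% of all genes. Ctsz, a lysosomal carboxypeptidase, rose from 83.1 ± 15.7 to 149 ± 13.1 FPKM (SD over 5 tumors per group, log2 change 0.86, limma adjusted p = 0.0024), and Ctsc (0.59, limma adjusted p = 0.0349) and Ctss (0.38, limma adjusted p = 0.0470), which are cathepsins of leukocytes and antigen-presenting cells, were higher too. Htra1, a secreted serine protease, fell from 284 ± 36.0 to 129 ± 23.3 FPKM (SD over 5 tumors per group, log2 change -1.14, limma adjusted p = 0.000588), and the lysosomal protease Ctsd fell by 0.35 on the log2 scale (limma adjusted p = 0.0324). Of 22 inducers and binding partners, 1 passed, beside 10.9% of all genes. Il1a, a cytokine that induces metalloproteinases in fibroblasts, rose from 4.51 ± 1.84 to 9.36 ± 3.65 FPKM (SD over 5 tumors per group, limma adjusted p = 0.0492). Many of these calls were lost in fits with fewer tumors, and several in fits of all 10 tumors. With a replicate block, the limma adjusted p was 0.114 for Ctss, 0.0597 for Ctsd, 0.0874 for Plat and 0.0769 for Il1a. With an equal FPKM total it was 0.137 for Ctsd and 0.0540 for Plat. Quantile normalization gave 0.141 for Ctss and 0.0606 for Ctsc. Without the variance trend Ctss was at 0.0599 and Il1a at 0.0518, and with tumor quality weights Plat was at 0.0603. Over all genes the number past the threshold also fell, from 1822 to 1101, when Villin-WlscKO tumors 2 and 3 were left out. Without Villin-WlscKO tumors 2 and 3 the number of pathway genes past the threshold fell from 11 to 5, which were Mmp7, Mmp15, Ctsz (log2 change 0.80, limma adjusted p = 0.0192), Htra1 (-0.96, limma adjusted p = 0.00178) and, newly, Pcsk6. Plgrkt was then at 0.74 (limma adjusted p = 0.0584), Plat at -0.77 (limma adjusted p = 0.145), Ctsc at 0.48 (limma adjusted p = 0.163), Ctss at 0.29 (limma adjusted p = 0.0971), Ctsd at -0.35 (limma adjusted p = 0.111) and Il1a at 1.00 (limma adjusted p = 0.102). In the same order, their changes with all tumors were 0.81, -0.998, 0.59, 0.38, -0.35 and 0.90. With each of the 10 tumors left out in turn, Ctsz, Htra1 and Plgrkt passed in all 10 fits. Plat passed in 3 (without control tumor 2 or 5 or Villin-WlscKO tumor 4), Ctsc in 3 (without control tumor 3 or 4 or Villin-WlscKO tumor 5), Ctsd in 3 (without control tumor 2 or 3 or Villin-WlscKO tumor 4), Il1a in 2 (without control tumor 3 or Villin-WlscKO tumor 5) and Ctss in 1 (without Villin-WlscKO tumor 4). Bsg, the inducer basigin, was at 487 ± 17.7 and 499 ± 42.3 FPKM (SD over 5 tumors per group, limma adjusted p = 0.836).

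T cell markers were higher in 4 of 8 (Cd8a, Cd3e, Cd3g and Cd3d), beside 6.12% of all genes. The 8 markers summed to between 7.29 and 14.9 FPKM in controls and between 14.7 and 37.6 FPKM in the Villin-WlscKO group. Without Villin-WlscKO tumors 2 and 3, Cd3e (limma adjusted p = 0.0550), Cd3g (limma adjusted p = 0.0607) and Cd3d (limma adjusted p = 0.186) did not pass, and Cd8a was under the minimum for testing. With single tumors left out, Cd3d passed in 2 of 10 fits, without control tumor 4 or Villin-WlscKO tumor 1. In limma with a replicate block, Cd3g (adjusted p = 0.0674) and Cd3d (adjusted p = 0.117) did not pass. Nor did Cd3d with scaling by median ratios (limma adjusted p = 0.05002). Of the colon epithelium markers, all 10 had a positive change, with a median log2 change of 0.27, and 6 had an unadjusted limma p under 0.05. The weakest of those 6, Krt8 (limma unadjusted p = 0.0478), ranked 4234 by adjusted p among the 16757 genes tested. Krt20 was higher past the threshold, beside 6.12% of all genes, and the other 9 were not. Endothelial and smooth muscle markers had 0 of 8 each past the adjusted threshold in limma, and 0 of 8 each at an unadjusted p under 0.05.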

How the data were processed

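Stranded mRNA libraries of 5 control and 5 Villin-WlscKO tumors had been sequenced. The authors checked reads with FastQC, mapped them with TopHat2 2.1.1 to GRCm38.p5 and quantified them with Cufflinks 2.2.1 and Cuffdiff at default parameters, and the values they deposited are FPKM. The annotation release and the choice of names are not given in the sources used here. All 10 columns were assigned by their labels. FPKM summed to between 1207683 and 1533885 per tumor, and a search of 277 low-value genes for whole-read steps found at most 6 with a common ratio, so depth is unknown and precision rests on the spread between tumors.

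Groups were compared on log2(FPKM + 1), pseudocount 1, by limma 3.58.1 (R 4.3.3) with mean FPKM of at least 0.5, eBayes with trend, over 16757 genes, two-sided, with Benjamini-Hochberg adjustment over all of them and a threshold of 0.05. Fold changes on this scale understate those of low genes. It was tested on simulated data. Exact permutation tests used Python 3.11.15 with numpy 2.4.6 and pandas 2.3.3, correlations scipy 1.17.1, figures matplotlib 3.10.9 and sequences Biopython 1.88. Coding sequences are the longest open reading frames of GENCODE M21 transcripts whose length equals the annotated one. The members, lists and tests were chosen with earlier results of these data known. The text names all members, every other Mmp gene, Timp4, up to 5 genes past the threshold per pathway list, and the 3 genes most like each member. Other genes (Pcsk6, Plau, Bsg, Lcn2, S100a8 and markers named singly) were chosen after their values were seen. Same-numbered tumors deviated together with r of 0.064, -0.087, 0.063, 0.10 and 0.16. These values do not settle whether the numbers pair the tumors. No pairing is stated in the sources used here, and the main fit was unpaired. The alternatives tried were another pseudocount, 3 scalings, 2 filters, 3 settings of the variance model, a replicate block, omission of tumors and of groups of names, and ratios of FPKM.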

Additional observations from a re-analysis of the deposited data

Results flagged for a closer look

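Of 32 groups of 5 tumors examined among the members, the other metalloproteinases and Timp4, 1 held a tumor far from the rest by Dixon's criterion, where chance gives about 1 in 20. Mmp19, a metalloproteinase of leukocytes and endothelium, was at 0.903 FPKM in Villin-WlscKO tumor 5, below the other 4 Villin-WlscKO tumors, which lay between 2.77 and 3.77 FPKM.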

How the results depend on the processing

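Mmp9 stayed lower in all 23 alternative fits and past the threshold in 21, with changes from -1.66 to -1.35 outside the fits that leave out single tumors and from -1.74 to -1.30 within them; the exceptions were the fits without Villin-WlscKO tumor 3 and without tumors 2 and 3 together (-1.48). Mmp7 and Mmp15 passed in all 23. Mmp14 kept its sign and did not pass in any fit, and Mmp2 likewise. Timp2 also kept its sign, while Mmp3/Mmp10, Mmp13, Timp1 and Timp3 changed sign in some fits. With single tumors left out, the change ranged from -0.65 to 0.11 for Mmp3/Mmp10 (positive at 0.11, 0.048 and 0.063 without control tumor 3 and Villin-WlscKO tumors 3 and 5), from -0.57 to 0.44 for Mmp13 (0.22, 0.44 and 0.16 without the same 3), from -0.15 to 0.26 for Timp1 (-0.095, -0.15, -0.074 and -0.0089 without control tumors 1 and 2 and Villin-WlscKO tumors 2 and 4), from -0.054 to 0.24 for Timp3, from -0.49 to -0.055 for Mmp2 and from -0.56 to -0.35 for Timp2. Tumor quality weights gave 0.073 for Mmp13. Without Villin-WlscKO tumors 2 and 3 together Mmp13 was at 0.28 and Timp3 at -0.11, 0 members, 5 other pathway genes and 1101 of all genes passed. With single tumors left out, 0 to 2 members, 6 to 11 other pathway genes and 1229 to 1986 of all genes passed. The causes were not tested. With a replicate block, Mmp9 was at -1.53 and passed, 1627 genes passed, and of the members and other metalloproteinases only Mmp28 lost its call (0.72). Scaling every tumor to the same FPKM sum moved the median log2 change of all genes from 0.0073 to 0.097 and turned no sign among the members. The log2 ratio of median FPKM was 0.65 for Mmp3/Mmp10 and 1.56 for Mmp13. Both were opposite in sign to the differences of mean log2(FPKM + 1), and for Mmp13 the shift exceeded the within-group SD. The 5 tumors per group and the unknown read depth limit all of these.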
